A study of Mus musculus with 5 samples.

Results

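The kinases and cyclins that drive RNA polymerase II through elongation were followed in neural tubes of mouse embryos with and without the erythropoietin receptor. They are the transcription cyclin-dependent kinases Cdk12, Cdk13, Cdk9 and Cdk7 and the cyclins Ccnk, Ccnt1, Ccnt2 and Ccnh, chosen by symbol. All 8 were among the 23284 genes counted, and all 8 passed the filter on low values that left 12703 genes for testing. RNA-seq was done on polyA-selected RNA from neural tubes, the tissue that forms the brain and spinal cord, of 5 mouse embryos labelled E8.5 (embryonic day 8.5), although the study's methods give a slightly later stage. EpoR-null embryos (EpoR -/-, n = 2) were compared with the littermate controls, which were wild type embryos (EpoR +/+, n = 2) and 1 heterozygote (EpoR +/-). The embryos came from matings of EpoR +/- mice, so the deletion was carried in the germline and was present in every cell type, blood included, and no other allele or agent is named in the labels. The labels do not say which embryos shared a litter, so p-values measure the spread between these 5 samples.

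Transcription by RNA polymerase II is controlled by phosphorylation of the C-terminal domain (CTD) of its largest subunit. Cdk7 with cyclin H (Ccnh) belongs to the initiation factor TFIIH and phosphorylates the CTD as transcription starts. Cdk9 with cyclin T1 or T2 (Ccnt1, Ccnt2) forms P-TEFb, the kinase that releases paused polymerase, and Cdk12 and Cdk13, which both bind cyclin K (Ccnk), phosphorylate the CTD during productive elongation and are known for sustaining expression of long genes and, for Cdk12, of DNA damage response genes.

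Reads counted on genes ranged from 19316126 to 41169218 per sample, so that 3 reads corresponded to between 0.0715 and 0.152 CPM, the read count scaled to library size with TMM factors, well under the level of each of the 8 genes. Epor itself, the check of the genotype labels, was counted 57 and 68 times in wild type, 11 times in the single heterozygote and 7 and 19 times where both alleles were deleted. Its log2 fold change was -1.51 (SE 0.76, FDR 0.28 by the exact test of edgeR with Benjamini-Hochberg adjustment), and the heterozygote lay between the EpoR-null samples, so Epor separated wild type from EpoR-null but not the pooled controls from EpoR-null. Neural tube markers (9 genes, among them Sox2 and Pax6) summed to 1755 and 1774 CPM in wild type and 1994 CPM in the heterozygote. The EpoR-null samples were lowest, at 1714 and 1532 CPM. Of the 9, 1, Msi1, was called lower in EpoR-null samples (log2 fold change -0.51, FDR 0.00712 by the same test). Over all genes tested 3.84% were called lower. The heterozygote stood apart in markers of other cell types. Its primitive erythroid markers (7 genes) summed to 44.2 CPM against 603 to 1693 CPM in the other 4 samples, and its endothelial markers (5 genes) to 10.8 against 104 to 235 CPM. Markers of neural crest (34.8 against 102 to 159 CPM), somite (7.57 against 24.3 to 59.7 CPM) and surface ectoderm (4.97 against 14.3 to 29.5 CPM) were lowest there too, and no gene of these 5 lists was called. In such bulk samples fewer cells of a type and less RNA per cell cannot be told apart.

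A difference was called where p was under 0.001 and FDR under 0.05 in the exact test of edgeR, the thresholds of the study. By this rule 3 of the 8 genes were lower in EpoR-null neural tubes (Cdk12, Ccnt1 and Ccnt2) and 0 were higher, where 3.84% of all genes tested were called lower and 0.929% higher. In 4 of the 8 (these 3 and Cdk13) both EpoR-null samples lay below all 3 controls, and in 0 of 8 above them. Over all genes tested 22.1% lay wholly below and 21.2% wholly above the controls. The median log2 fold change of the 8 genes was -0.25, and that of all genes tested was 0.06.

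Ccnt2 and Cdk13 were lower in both EpoR-null samples and Cdk7 was not, but Cdk13 was not called. Among genes in the same class of transcript length, given below, 45.9% were lower than Cdk13 and 5.71% lower than Cdk7. The promoter sequences of these genes are set side by side. They are the 250 bases before the RefSeq start (GRCm38.p6, 5′ to 3′ on the gene's own strand), at chr1:127773914-127774163 (plus strand), chr13:17805098-17805347 (minus strand) and chr13:100730943-100731192 (minus strand). Capitals mark every match, on either strand, to GGGCGG (the GC box of Sp1) or CCAAT, and in Ccnt2 a reverse CCAAT runs into a GGGCGG.
Ccnt2: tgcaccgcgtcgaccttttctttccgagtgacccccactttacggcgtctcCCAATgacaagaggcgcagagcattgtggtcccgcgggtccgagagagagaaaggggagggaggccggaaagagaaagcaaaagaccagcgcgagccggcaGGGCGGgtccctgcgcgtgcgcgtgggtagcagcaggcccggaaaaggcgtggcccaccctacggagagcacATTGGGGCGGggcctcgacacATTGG
Cdk13: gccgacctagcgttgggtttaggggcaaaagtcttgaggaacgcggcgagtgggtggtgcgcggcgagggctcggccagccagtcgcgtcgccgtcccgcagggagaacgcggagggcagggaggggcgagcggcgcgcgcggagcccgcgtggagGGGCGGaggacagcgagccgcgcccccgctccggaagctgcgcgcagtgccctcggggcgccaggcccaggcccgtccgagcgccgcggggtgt
Cdk7: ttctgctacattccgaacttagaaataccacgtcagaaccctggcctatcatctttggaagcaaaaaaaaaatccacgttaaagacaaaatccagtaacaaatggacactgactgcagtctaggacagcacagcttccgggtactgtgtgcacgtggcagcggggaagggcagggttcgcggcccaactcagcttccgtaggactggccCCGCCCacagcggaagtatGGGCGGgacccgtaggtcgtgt
RefSeq promoters were matched for 7 of the 8 genes, all but Ccnh. The windows of Cdk12, Ccnt1, Cdk9 and Ccnk lay partly or wholly in exons of their own GENCODE transcripts and are given as counts only. Of the Ccnt2 window, 165 bases lie in exons of the opposite-strand gene 2900009J06Rik and none in exons of Ccnt2. GGGCGG occurred 2 times in Cdk12, Ccnt1, Ccnt2 and Cdk7, 1 time in Cdk13 and Cdk9, and 0 times in Ccnk, and was present in 32.7% of 32851 RefSeq promoters. CCAAT occurred 3 times in Ccnt2, 1 time in Cdk9 and Ccnk, and was present in 33.8% of promoters. None of the 7 windows held TATAAA (12.4% of promoters), TGCGCA, the core of the NRF1 motif (6.43%), or TTCNNNGAA, the STAT5 motif (7.02%). These are matches of letters, and the GC-box counts did not separate the genes that were lower from those that were not.

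Cdk12 (chromosome 11, 98203059 to 98278504, plus strand, GENCODE M21 on GRCm38) is the elongation kinase that the study singled out in these samples, so its direction is not independent evidence. Its expression was 100.4 and 89.8 CPM in the wild type samples and 102 CPM in the heterozygote, and it was 64.0 and 61.9 CPM in the EpoR-null samples. The groups did not overlap. Controls averaged 97.4 ± 6.68 CPM (SD, n = 3) and the EpoR-null pair 63.0 ± 1.45 CPM (SD, n = 2), which gave a log2 fold change of -0.63 (SE 0.14, 95% interval -0.90 to -0.36) with FDR 0.000514 by the exact test of edgeR. The heterozygote, low in the markers of other cell types, was 0.10 above the wild type mean on the log2 scale for Cdk12, 0.12 above it for Ccnt1 and 0.03 above it for Ccnt2. The call was lost without wild type replicate 1 (log2 fold change -0.61, FDR 0.116) and without the heterozygote (-0.60, FDR 0.0594).

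Cdk13 (chromosome 13, 17710315 to 17805097, minus strand), the paralogue of Cdk12, was measured at 107 and 97.6 CPM in wild type, 103 CPM in the heterozygote, and 81.4 and 74.7 CPM in EpoR-null neural tubes. Both EpoR-null samples again lay below every control. The means of 103 ± 4.64 (SD, n = 3) and 78.1 ± 4.76 CPM (SD, n = 2) gave a log2 fold change of -0.39 (SE 0.13), with p = 0.00364 and FDR 0.0499 by the exact test of edgeR, so it passed the FDR threshold but not the p threshold. The FDR rose to 0.539 without wild type replicate 1, 0.191 without wild type replicate 2 and 0.348 without the heterozygote. Without EpoR-null replicate 1 Cdk13 was called (log2 fold change -0.46, FDR 0.00109), but that fit has 1 EpoR-null sample, which is assumed to vary like the controls, and it called 2296 of 12576 genes against 606 of 12703 with all samples.

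Ccnk (chromosome 12, 108179579 to 108203359, plus strand) encodes cyclin K, without which neither kinase is active. It was at 106 and 114 CPM in wild type, 111 CPM in the heterozygote and 94.5 and 111 CPM in EpoR-null samples. The second EpoR-null sample fell among the controls. The log2 fold change was -0.10 (95% interval -0.38 to 0.18, FDR 0.758 by the exact test of edgeR), so the interval holds both no change and a decrease about as large as that of Cdk13.

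**Figure D1:**
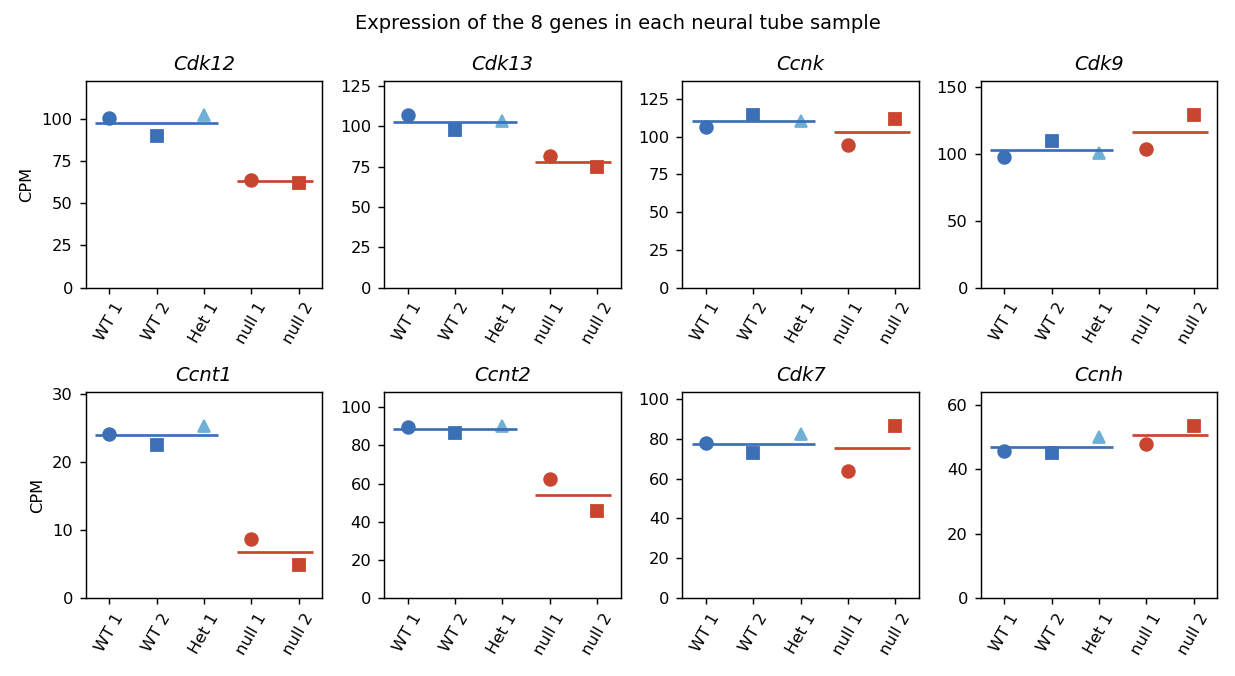
Expression (CPM, vertical axis from 0) of the 8 genes in each neural tube sample (horizontal axis: WT, wild type, Het, heterozygote, null, EpoR-null, numbered by replicate), with horizontal lines at the means of the 3 controls and the 2 EpoR-null samples. Cdk12, Cdk13, Ccnt1 and Ccnt2 lie lower in both EpoR-null samples than in every control, while Ccnk, Cdk9, Cdk7 and Ccnh overlap between the groups.

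P-TEFb showed the widest spread of fold changes, with its cyclins lower and its kinase not. Cdk9 (chromosome 2, 32705784 to 32713076, minus strand) was at 97.6 and 109 CPM in wild type, 101 CPM in the heterozygote, and 103 and 129 CPM in EpoR-null samples. One EpoR-null sample lay among the controls and the other above them. The log2 fold change of Cdk9 was 0.18 (SE 0.16, 95% interval -0.13 to 0.49, FDR 0.577 by the exact test of edgeR).

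Ccnt1 (chromosome 15, 98538689 to 98570923, minus strand), the cyclin that joins Cdk9 in much of cellular P-TEFb, had the largest change of the 8. It had 583, 944 and 585 reads in wild type replicates 1 and 2 and the heterozygote, and 173 and 140 reads in the EpoR-null samples. Scaled for depth these were 24.1, 22.5 and 25.3 CPM in the controls against 8.74 and 4.93 CPM. The controls were tightly grouped, and the EpoR-null samples differed from each other 1.77-fold while both staying far below. The means of 24.0 ± 1.41 (SD, n = 3) and 6.83 ± 2.69 CPM (SD, n = 2) gave a log2 fold change of -1.82 (SE 0.31, 95% interval -2.43 to -1.20), or 3.52-fold lower, with FDR 1.51e-05 by the exact test of edgeR. Among tested genes with transcripts of 5427 bases or more, 0.437% had a lower log2 fold change. Exons of Ccnt1 share 695 bases with the opposite-strand gene 9330020H09Rik, which was at 1.48 to 2.88 CPM and not called, and the strand setting of the counting is not given in the sources used here.

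Ccnt2 (chromosome 1, 127774164 to 127808061, plus strand), the other Cdk9 cyclin, was at 89.8 and 86.6 CPM in wild type, 90.1 CPM in the heterozygote, and 62.4 and 45.5 CPM in EpoR-null samples. Every control was above both EpoR-null samples, which differed from each other 1.37-fold. The means were 88.8 ± 1.91 (SD, n = 3) and 54.0 ± 12.0 CPM (SD, n = 2), with a log2 fold change of -0.72 (SE 0.18) and FDR 0.00382 by the exact test of edgeR. The call was lost when any 1 control was left out, with FDR of 0.161 without wild type replicate 1, 0.0592 without wild type replicate 2 and 0.0963 without the heterozygote.

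Cdk7 and its cyclin did not pass the test. Cdk7 (chromosome 13, 100702631 to 100730939, minus strand), the TFIIH kinase that also activates other CDKs, was at 78.0 and 72.6 CPM in wild type, 82.1 CPM in the heterozygote, and 63.9 and 86.3 CPM in EpoR-null samples. The EpoR-null samples lay on either side of all the controls. The log2 fold change was -0.04 (95% interval -0.40 to 0.31, FDR 0.936 by the exact test of edgeR). Ccnh (chromosome 13, 85189408 to 85223469, plus strand) was at 45.7 and 45.2 CPM in wild type, 50.2 CPM in the heterozygote, and 47.7 and 53.4 CPM in EpoR-null samples, with a log2 fold change of 0.11 (SE 0.16, FDR 0.764). For cyclin H the groups overlapped.

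**Figure D2:**
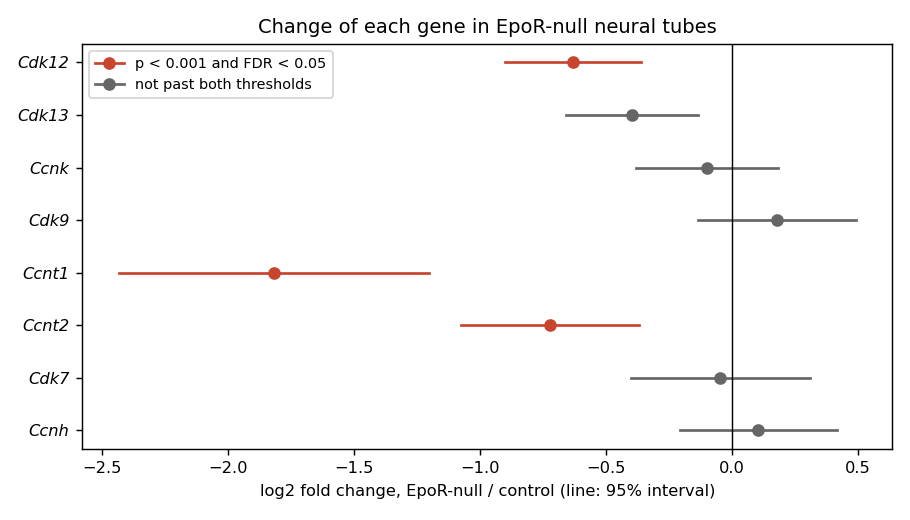
Log2 fold change of each of the 8 genes, EpoR-null over control (horizontal axis), as points with 95% intervals from the negative binomial model, in red where p and FDR both passed. Ccnt1 lies farthest from 0 at -1.82, Cdk12 and Ccnt2 at -0.63 and -0.72, and the intervals of Cdk9, Cdk7, Ccnk and Ccnh include 0.

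Because partners act as complexes, the ratio of their read counts within each sample was compared, a measure that does not depend on scaling between libraries. A trend on transcript length within a library, given below, is not removed from such ratios. The ratio of Cdk9 to Ccnt1 reads was 4.05, 4.86 and 3.99 in wild type replicates 1 and 2 and the heterozygote, whereas EpoR-null samples had 11.8 and 26.1. The balance of kinase to cyclin T1 transcripts was therefore higher in both EpoR-null samples than in any control, 4.11-fold on average. The ratio of Cdk9 to Ccnt2 was 1.09, 1.26 and 1.12 in controls against 1.66 and 2.83. Between the cyclins the ratio of Ccnt1 to Ccnt2 was 0.268, 0.260 and 0.281 in controls and 0.140 and 0.108 in EpoR-null samples, so Ccnt1 was lower also relative to Ccnt2. The ratio of Cdk12 to Ccnk was 0.946, 0.787 and 0.924 against 0.678 and 0.556, and that of Cdk12 to Cdk13 was 0.940, 0.919 and 0.989 against 0.786 and 0.829. These 5 ratios did not overlap between the groups. The ratios of Cdk13 to Ccnk and of Cdk7 to Ccnh did overlap, with Cdk7 to Ccnh at 1.70, 1.60 and 1.64 in controls and 1.34 and 1.62 in EpoR-null samples. With 2 against 3 samples the two-sided exact permutation test cannot go below p = 0.1, which each of the 5 ratios reached (0.14 after Benjamini-Hochberg adjustment over 7 ratios), so no ratio could pass 0.05.

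**Figure D3:**
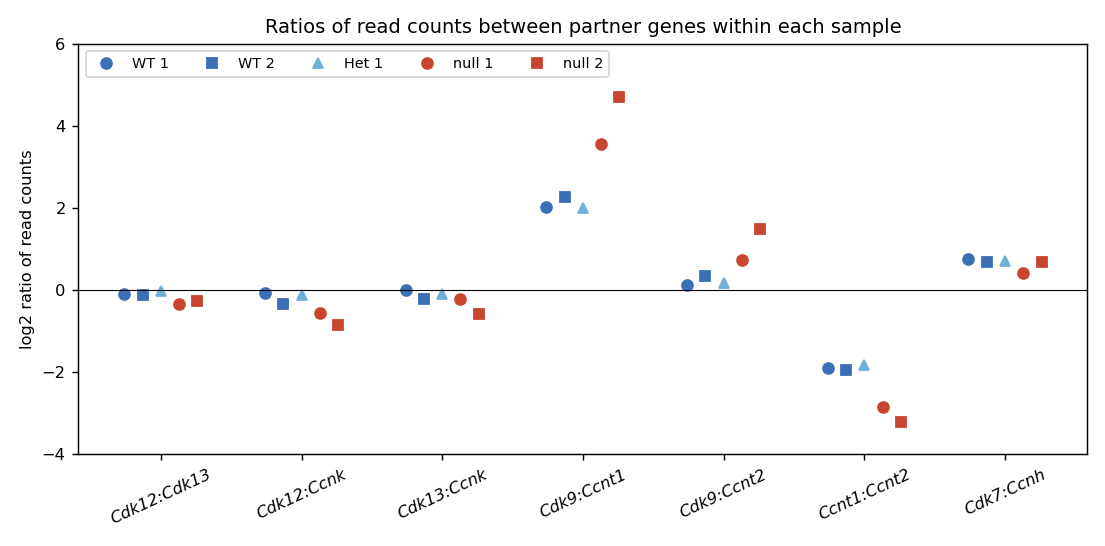
Log2 ratio of read counts between partner genes (vertical axis) in each of the 5 samples (horizontal axis: the 7 gene pairs), 1 point per sample. The EpoR-null points of Cdk9:Ccnt1 and Cdk9:Ccnt2 lie above all controls, those of Cdk12:Cdk13, Cdk12:Ccnk and Ccnt1:Ccnt2 below, and the points of Cdk13:Ccnk and Cdk7:Ccnh overlap.

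Levels were compared between genes per kilobase of the longest annotated transcript. In controls Ccnk stood at 39.5 ± 1.40 CPM per kilobase and Cdk7 at 39.0 ± 2.40 (SD, n = 3), and these did not differ beyond their spread. Cdk9 followed at 28.8 ± 1.70, then Ccnh at 23.0 ± 1.33, Cdk12 at 16.5 ± 1.13, Ccnt2 at 11.6 ± 0.250, Cdk13 at 8.17 ± 0.370 and Ccnt1 at 3.24 ± 0.190 CPM per kilobase. Neighbours in this order other than Ccnk and Cdk7 were separated by more than their SD. In EpoR-null neural tubes Cdk12 (10.7 ± 0.246), Ccnt2 (7.06 ± 1.57), Cdk13 (6.22 ± 0.379) and Ccnt1 (0.924 ± 0.364 CPM per kilobase, SD, n = 2) again took the last places. There Ccnt2 and Cdk13 did not differ beyond their spread, and in EpoR-null replicate 2 both were at 5.95. The order depends on the transcript chosen for Cdk9, whose level in controls was 59.2 CPM per kilobase, the highest of the 8, over its longest coding transcript. Cyclin T1 transcripts were thus the scarcest of the set in both groups.

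The 4 genes that were lower in both EpoR-null samples are also those with the longest transcripts of the 8, and across all genes the fold change moved with transcript length. Longest transcripts were 5912 bases for Cdk12, 7397 for Ccnt1, 7640 for Ccnt2 and 12548 for Cdk13, against 1988 to 3565 bases for Cdk7, Ccnh, Ccnk and Cdk9. Among 12584 tested genes with a length, split into 5 classes, the median log2 fold change was 0.37 in the shortest class, of up to 2061 bases, and then 0.16, 0.04 and -0.11, and -0.36 in the longest class, of 5427 bases or more, where 16% of genes were called lower. In the longest class the median difference from the wild type mean was -0.25 in EpoR-null replicate 1 and -0.55 in replicate 2, and 0.05 in the heterozygote. Within that class 20.3% of genes were lower than Cdk12, 14.1% lower than Ccnt2 and 45.9% lower than Cdk13. Within their own, shorter classes 5.71% of genes were lower than Cdk7, 12.3% lower than Ccnk, 12.3% lower than Ccnh and 70.7% lower than Cdk9. The ratios above keep this trend where partners differ in length. Ccnk is in the class with median 0.16 and Cdk9 in that with 0.04, against -0.36 in the longest class. Between groups the log2 ratios differed by -0.52 for Cdk12 to Ccnk, 2.04 for Cdk9 to Ccnt1 and 0.91 for Cdk9 to Ccnt2. The share of the trend in these was not tested.

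When offsets removed each sample's trend on length and GC content, the likelihood-ratio test of edgeR called Ccnt1 with a log2 fold change of -1.45 (FDR 8.47e-06) and no other of the 8. Cdk12 was then at -0.36 (FDR 0.446), Ccnt2 at -0.32 (FDR 0.374) and Cdk13 at 0.11 (FDR 0.997). Ccnk was at -0.27 (FDR 0.649), Cdk7 at -0.22 (FDR 0.953), Cdk9 at 0.14 (FDR 0.997) and Ccnh at 0.02 (FDR 0.998). Cdk12 and Ccnt2 were thus little lower than Ccnk and Cdk7 in this fit. The same test without offsets made the same calls as the exact test. Cdk13 lay near the median of its class, Cdk12 and Ccnt2 in its lower part, and Ccnt1 near its bottom. Cdk7, Ccnk and Ccnh lay in the lower part of their own classes and Cdk9 in the upper part. What underlies the trend on length was not tested.

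**Figure D4:**
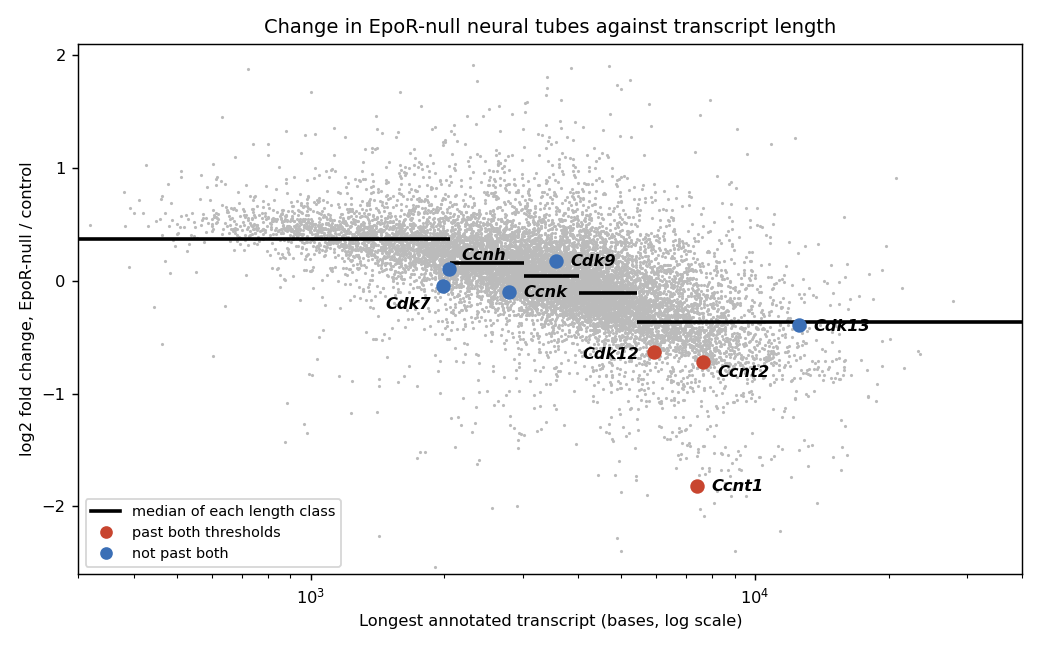
Log2 fold change, EpoR-null over control (vertical axis), against longest annotated transcript (bases, log scale) for tested genes (grey, some beyond the axes) with the median of each of the 5 length classes (black lines) and the 8 genes labelled, in red where called. Medians step down from 0.37 to -0.36, Cdk13 lies near the line, and Ccnt1 lies at -1.82 far below it.

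The surrounding elongation machinery was described from lists of known members. Together 67 tested genes of 9 lists held 3 called lower (Med12, Med13l and Polr2a) and 1 called higher (Supt4h1), with a median log2 fold change of 0.01. Over all genes tested 3.84% were called lower and 0.929% higher, so these counts are near the background. The inhibitors of P-TEFb in the 7SK particle (Hexim1, Hexim2, Larp7, Mepce) had 0 of 4 called and a median of 0.11. Larp7, which binds the 7SK RNA, was at 139, 129 and 146 CPM in controls and 141 and 135 CPM in EpoR-null samples. The super elongation complex, in which P-TEFb works, had 0 of 9 tested genes called and a median of -0.23. In the fit without EpoR-null replicate 1, where only the controls give the spread and 2296 of 12576 genes were called, there were 2 of 9.

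Polymerase itself divided by subunit. Polr2a, which encodes the largest subunit and carries the CTD that all these kinases phosphorylate, was at 521, 531 and 528 CPM in controls and 307 and 349 CPM in EpoR-null samples. Its groups were far apart relative to the control spread, with a log2 fold change of -0.68 (SE 0.14, FDR 0.000235 by the exact test of edgeR). The other 11 subunits were not called, and in 7 of the 12 both EpoR-null samples lay above every control (21.2% of all genes tested did) and in 2, Polr2a and Polr2b, below (22.1% did), with Polr2k at 23.1, 22.8 and 23.6 CPM in controls and 32.0 and 33.7 CPM. The median over the 12 was 0.45. Of the subunits wholly above the controls, all but Polr2c are in the shortest length class, where the median over all genes was 0.37. Polr2a has a transcript of 6740 bases and Polr2k one of 601 bases, the longest and the shortest of the 12, and with length and GC offsets Polr2a was not called (-0.37, FDR 0.666). Leaving out EpoR-null replicate 1 raised the calls from 1 to 10 of 12, in a fit whose spread comes from the controls alone and that called 2296 of all 12576 genes, and leaving out wild type replicate 1 ended that of Polr2a (FDR 0.0559).

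Among pausing factors DSIF and NELF 1 of 6 was called, Supt4h1, the small subunit of DSIF, which was higher (35.0, 37.5 and 35.5 CPM against 48.7 and 58.7 CPM, log2 fold change 0.58, FDR 0.0151 by the exact test of edgeR). Its call was lost when any 1 control or EpoR-null replicate 2 was left out, with FDR from 0.0506 to 0.364, and with length and GC offsets (log2 fold change 0.14, FDR 0.997). The PAF1 complex and other elongation factors had 0 of 12 called and a median of -0.18. In 7 of the 12 both EpoR-null samples lay below every control (22.1% of all genes tested did) and in 1 above (21.2% did). The likelihood-ratio test of edgeR called 1 of the 12, and DESeq2, another test, called 3. Supt6h (-0.43, FDR 0.0215), Cdc73 (-0.42, FDR 0.0339) and Supt16h (-0.41, FDR 0.0389) met the FDR threshold only. Supt6h and Cdc73 are in the longest length class, where the median was -0.36. TFIIH partners of Cdk7 had 0 of 8 called and a median of 0.11, and CTD phosphatases 0 of 7 with a median of 0.00. Without EpoR-null replicate 1, where the spread comes from the controls alone and 2296 of 12576 genes were called, there were calls in each of these lists: 2 of 6 pausing factors, 2 of 12 elongation factors, 2 of 8 TFIIH partners and 2 of 7 phosphatases, and also 1 of the 4 P-TEFb inhibitors.

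The Mediator kinase module, which carries the related kinases Cdk8 and Cdk19, had 2 of 7 called, both lower, and a median of -0.66. Over all genes tested 3.84% were called lower. Med12, the subunit that activates Cdk8, was at 113, 108 and 108 CPM in controls and 72.5 and 66.7 CPM in EpoR-null samples (log2 fold change -0.66, FDR 9.98e-05 by the exact test of edgeR), and Med13l was at -0.69 (FDR 0.0178). The kinase Cdk8 itself was at 118, 123 and 123 CPM against 114 and 120 CPM and was not called. Both called subunits, and also Cdk19, Med12l and Med13, are in the longest length class. In that class the median was -0.36 and 16% of genes were called lower. Without wild type replicate 1 or with length and GC offsets neither call held, without EpoR-null replicate 1 (spread from the controls alone) there were 4 of 7, and without any other single sample there was 1.

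Of 12 tested kinases among the other CDKs 0 were called, with a median of 0.20. Cdk6, a kinase of the G1 phase, had the largest difference of these. It was at 6.90, 6.29 and 6.87 CPM in controls and 1.82 and 3.91 CPM (36 and 111 reads) in EpoR-null samples. Its log2 fold change was -1.21, with FDR 0.0769 by the exact test of edgeR. With a transcript of 11525 bases Cdk6 is in the longest length class, where the median was -0.36. Cyclins L1 and L2 (Ccnl1, Ccnl2), which serve splicing-linked kinases, were not called either. Leaving out either EpoR-null replicate, which leaves the controls alone to give the spread, gave 1 call among the 12 kinases.

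Of 4 DNA damage response genes known to need CDK12 for their expression, 3 were lower and in all 4 the EpoR-null samples lay below every control, where 3.84% of all genes tested were called lower and 22.1% lay wholly below. Atr, the replication stress kinase, which the study also singled out on these samples, was at 81.3, 64.7 and 78.2 CPM in controls and 51.5 and 47.4 CPM (log2 fold change -0.60, FDR 0.0140 by the exact test of edgeR). Brca1, a recombination repair gene, was at -0.52 (FDR 0.00518), and Fancd2, of the Fanconi anaemia pathway, at -0.59 (FDR 0.00373). Fanci, its partner, was at -0.34 (FDR 0.143). The 3 called genes are in the longest length class, of which 16% were called lower. Without wild type replicate 1 or without the heterozygote 0 of the 4 were called, without wild type replicate 2 there was 1, and with length and GC offsets 0.

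**Figure D5:**
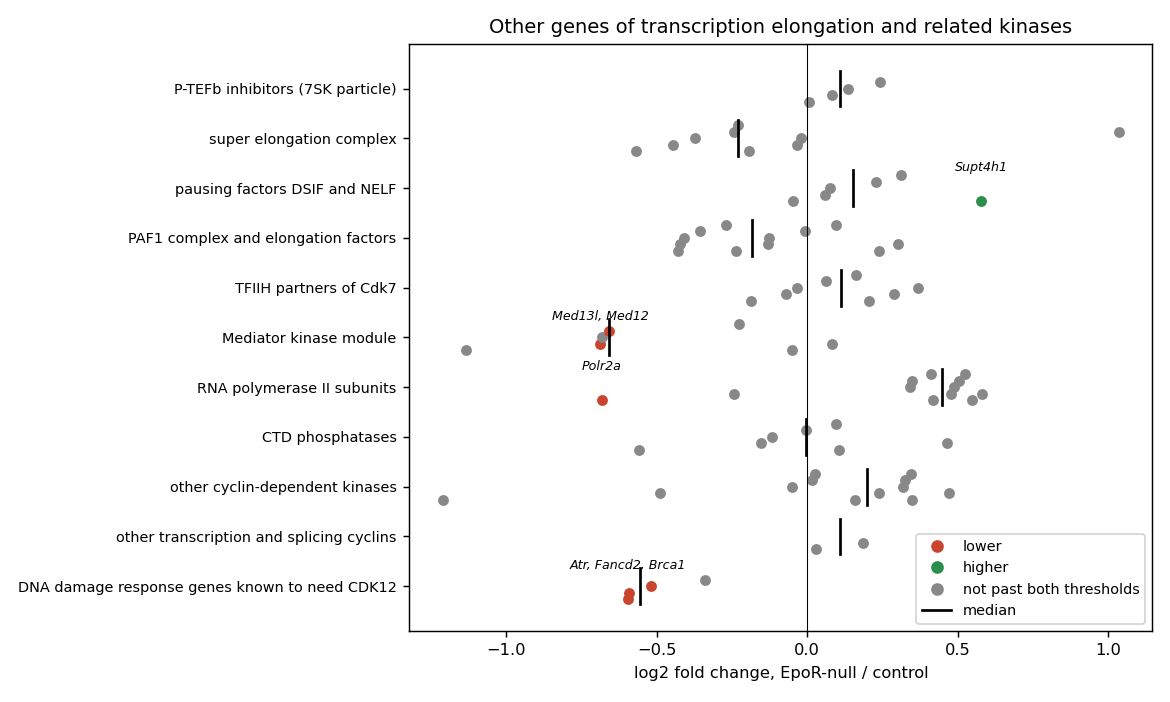
Log2 fold change, EpoR-null over control (horizontal axis), of each tested gene in 11 lists of elongation genes, related kinases and DNA damage response genes (vertical axis), with called genes named and list medians as black bars. Polr2a at -0.68 is the lowest of the 12 polymerase subunits, whose median is 0.45, and 3 of the 4 DNA damage response genes are called lower.

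The profile of Cdk12 over the 5 samples was most like those of Dicer1, Erc1, 2610035F20Rik, Usp31 and Dcp2, by the root-mean-square difference of centred log2 CPM over 12702 other tested genes (0.0240 to 0.0320). Dicer1, the microRNA-processing nuclease, was at 284, 255 and 283 CPM in controls and 179 and 168 CPM in EpoR-null samples. 2610035F20Rik was near the filter of 1 CPM, at 2.93, 2.74 and 3.11 CPM in controls and 1.87 and 1.83 CPM in EpoR-null samples. It was not called (FDR 0.314 by the exact test of edgeR). Dicer1, Erc1, Usp31 and Dcp2 were called lower, with log2 fold changes from -0.66 to -0.62. Their calls, like that of Cdk12, were lost without wild type replicate 1 and with length and GC offsets. In that ranking Cdk13 took place 442 and Ccnt2 place 728, and Ccnk, the shared cyclin, took place 3479. Ccnt1 came at place 11425, since its difference between genotypes was much larger than that of Cdk12.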

How the data were processed

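Reads were trimmed, aligned and counted by the authors. The submitters' processing notes name Trimmomatic 0.32, TopHat2 2.1.0, HTSeq 0.6.1 and mouse build mm9, whereas the study's methods name a human build for all RNA-seq. The deposited values are raw read counts per gene symbol, 1 table per sample, made by the authors with HTSeq without normalization. HTSeq set aside 8.11% to 11.0% of reads as lying in no gene and 1.84% to 2.31% as ambiguous, and these were not used. Strand setting and annotation are not given in the sources used here.

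Genes that exceeded 1 CPM in 2 or more samples were tested with edgeR 4.0.16 (TMM, tagwise dispersions, exactTest, 2 EpoR-null against 3 controls, Benjamini-Hochberg over all genes tested). Normalization, test and thresholds follow the study and the filter was set here. Alternatives were other tests, scalings and filters, the heterozygote as its own group, each sample left out, and length and GC offsets. SEs came from the negative binomial model at the same dispersions, with R 4.3.3, and 95% intervals from these SEs. No samples were duplicates (lowest chi-square per degree of freedom 11.9). Lengths came from GENCODE M21 (GRCm38, not the files' build) by symbol for 99.1% of tested genes. Fits were tested on simulated counts. The genes, lists and tests were chosen with earlier results of these data known. Named genes were the 8 genes, those called in each list, the 5 most like Cdk12, and Epor. Msi1 was named as a called marker, and Larp7, Polr2b, Polr2k, Cdk8, Cdk6, Fanci, Supt6h, Cdc73 and Supt16h, which were not called, were chosen after their values were seen. 1 gene of these lists is not reported here.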

Additional observations from a re-analysis of the deposited data

How the results depend on the processing

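The exact test called 606 genes and 3 of the 8. The quasi-likelihood F-test of edgeR called 0 genes (3052 had an unadjusted p under 0.05, lowest FDR 0.059) and 0 of the 8, for which the FDR was 0.0597 for Cdk12, 0.0615 for Ccnt1 and 0.0801 for Ccnt2. DESeq2 1.42.0 called 1028 genes, and Cdk13 besides the 3 (FDR 0.00485). With the heterozygote as its own group 246 genes and 1 of the 8 (Ccnt1) were called, and with length and GC offsets 185 and 1 (Ccnt1). Leaving out single samples gave 115 (without wild type replicate 1) to 2296 genes (without EpoR-null replicate 1, the lone EpoR-null sample being assumed to vary like the controls) and 1 to 4 of the 8. Ccnt1 was called under 15 of 16 alternatives, Cdk12 under 11, Ccnt2 under 9 and Cdk13 under 2. Direction reversed for Cdk13 with offsets (0.11), and for 2 genes that were not called, with leave-out ranges of -0.28 to 0.16 for Cdk7 and -0.23 to 0.014 for Ccnk. The cause was not tested. Another scaling, no filter, and at least 10 reads in every sample made the same 3 calls. Adding a replicate block to the quasi-likelihood F-test gave 291 genes, with Cdk12 (FDR 0.0410) and Ccnt1 (FDR 0.0422) among them, and Ccnt2 (FDR 0.0496) past the FDR threshold only. The labels share only numbers, not litters, and the differences between replicates 1 and 2 of wild type and of EpoR-null correlated across genes (Pearson 0.427), which genes as non-independent points cannot turn into a pairing. The levels per kilobase over the longest coding transcript (Cdk9 59.2 in place of 28.8, Ccnt2 13.2 in place of 11.6 CPM per kilobase) were added after seeing the data. With 2 EpoR-null samples, small changes of Ccnk, Cdk7, Cdk9 and Ccnh could not be detected.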
